A study of Mus musculus with 2 samples.

Results

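The proteasome genes are the protein-coding RefSeq genes on mouse chromosomes 1 to 19 whose symbol begins with Psma, Psmb, Psmc, Psmd, Psme, Psmf or Psmg and a number. There were 50 of them among 20665 protein-coding genes on those chromosomes. They were chosen by name and not by a measured value, although earlier results of these data were known. Psmd10, on the X chromosome, is outside the rule. They were examined in a CUT&Tag experiment that mapped DNA next to PHLPP1, a protein phosphatase known for acting on the kinase AKT, in mouse bone marrow-derived macrophages. The 2 groups had 1 library each: cells given IL-4 at 20 ng/ml for 4 h, and untreated cells. Both were grown from marrow with recombinant M-CSF at 20 ng/ml, the growth factor of macrophages, and the design text calls the profiled cells wild type. CUT&Tag uses an antibody to bring a transposase to its target on chromatin, and sequences the DNA that the enzyme tags. No library of PHLPP1-deficient cells and no control antibody library was analysed here, so signal that does not depend on PHLPP1 cannot be told apart from signal that does.

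The proteasome is the main machine that degrades ubiquitin-tagged proteins. Its core particle is a barrel of stacked rings of α and β subunits, with the cutting sites inside the β rings. A regulatory cap sits on the barrel: its base holds a ring of ATPases that unfold substrates, and its lid removes the ubiquitin chain. In cells of the immune system, and after interferon, the catalytic subunits Psmb8, Psmb9 and Psmb10 take the place of the constitutive Psmb5, Psmb6 and Psmb7, and the activator PA28, made of Psme1 and Psme2, can replace the cap. This immunoproteasome is known for making peptides that are shown on MHC class I. Chaperones of the Psmg family and Psmd5 and Psmd9 help to assemble the core and the base.

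The members fell into 7 α ring genes, 7 constitutive β ring genes, 6 base ATPases, 3 other base subunits, 8 lid subunits, 5 immunoproteasome and PA28 genes, 6 assembly genes, 2 other activators (Psme3 and Psme4), the inhibitor Psmf1 and 2 tissue forms of the core, Psma8 of the testis and Psmb11 of the thymus. The symbol rule also took in 3 genes that are not proteasome subunits or assembly factors. Psmc3ip encodes a partner protein of meiotic recombination, Psme3ip1 encodes a protein that binds Psme3, and Psme2b is a copy of Psme2. Reads from Psme2 and Psme2b can be hard to tell apart, which makes both uncertain, although Psme2b had no gene-end peak in either list.

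A gene-end peak is a deposited peak whose summit, the position of highest signal, lies no more than 1 kb from the start or the end of a gene as annotated. The fragments stacked at a summit were worked out from the deposited fold enrichment and −log10 p of the peak. The IL-4 list held 240661 peaks and the untreated list 149349, with medians of 4 and 5 fragments. The smallest number listed was 3 fragments with IL-4 and 4 without, and the lowest local background was 0.643 and 0.936 fragments, so a gene with no listed peak can still hold a few fragments. Because each group had 1 library, no difference between groups was tested, and the intervals on fragments (exact Poisson, 95%) and shares (Wilson, 95%) cover counting error only. Gene-end peaks stood at 4 of 7 macrophage marker genes with IL-4 and 1 of 7 without, at 2 and 0 of 5 neutrophil genes, at 1 and 2 of 3 T cell genes and at 0 and 1 of 3 B cell genes. Each of these marker sets is small, and the shares over all genes were 51.5% with IL-4 and 24.0% without. These peaks cannot identify a cell type.

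Proteasome genes had gene-end peaks mainly in the IL-4 list. With IL-4, 30 of 50 members had one (60%, interval 46.2 to 72.4), against a background of 51.5% of all protein-coding genes. Without IL-4, 7 of 50 did (14.0%, 6.95 to 26.2), against 24.0% of all genes. Both backgrounds lay inside the interval of the members' share. By list, 5 members had a peak in both (background 14.6%), 25 in the IL-4 list only (background 36.9%), 2 in the untreated list only (background 9.39%) and 18 in neither (background 39.2%). The other genes of ubiquitous machines were much the same: 58 of 94 cytosolic ribosomal protein genes (61.7%) and 47 of 78 mitochondrial ribosomal protein genes (60.3%) had an IL-4 gene-end peak, and 22.3% and 20.5% had an untreated one. For all genes too, the IL-4 list gave more gene-end peaks, and when the IL-4 list was cut to its strongest peaks, as many as in the untreated list, 25 of 50 members still had one (background 40.6%).

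Stronger peaks were few. With peaks at q of at most 0.05, 14 of 50 proteasome genes had a gene-end peak with IL-4 (28.0%, 17.5 to 41.7, background 19.2%) and 1 of 50 without (2%, 0.354 to 10.5, background 4.25%). By list, 1 member had such a peak in both (background 1.59%), 13 with IL-4 only (17.7%), 0 in untreated cells only (2.66%) and 36 in neither (78.1%). The untreated member was Psmb9, which was also the member in both. Past a −log10 q of 5, the IL-4 peaks were those of Psmd1, Psme2, Psmd12 and Psmg2, 4 of 50 (8%, 3.15 to 18.8, background 2.77%), and none of the 50 had such an untreated peak (background 0.0581%). By list this left 0 in both (background 0.0532%), 4 with IL-4 only (2.72%), 0 in untreated cells only (0.00484%) and 46 in neither (97.2%). At that threshold 2 of 94 cytosolic and 4 of 78 mitochondrial ribosomal protein genes had an IL-4 peak (2.13% and 5.13%), and neither family had an untreated one. Psmd1 was the best-ranked member by −log10 q, at place 31 of the 10633 genes with an IL-4 gene-end peak.

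**Figure D1:**
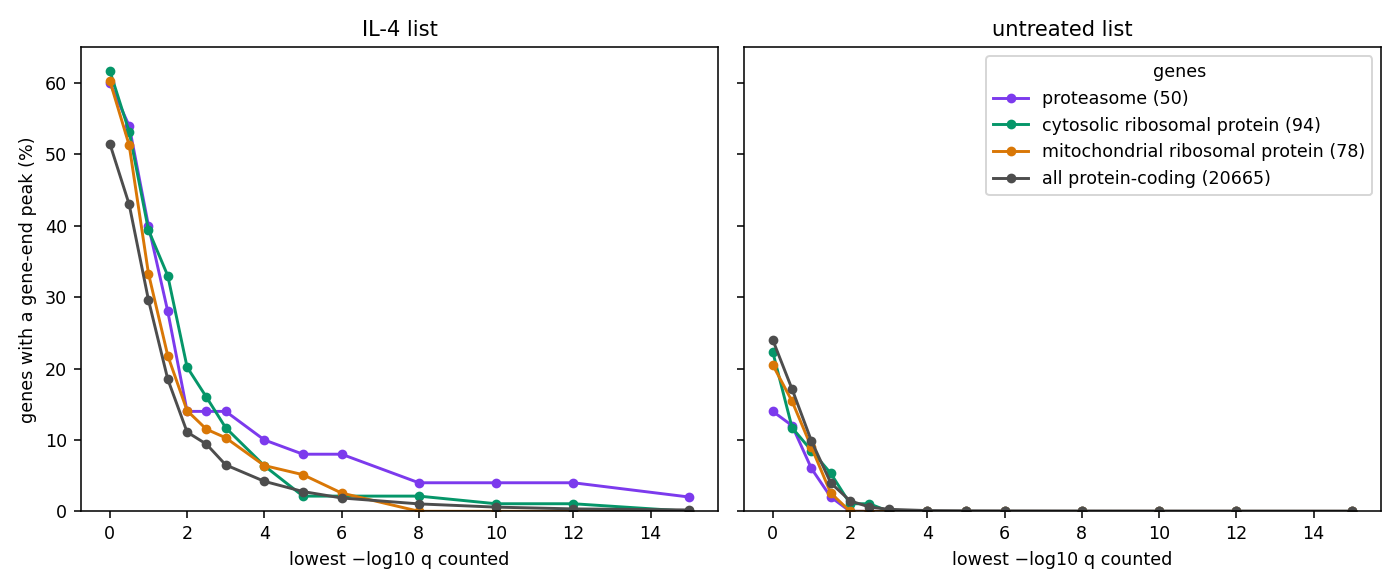
Share of genes (%) with a gene-end peak, counting only peaks at or above the −log10 q on the x axis, in the IL-4 list (left) and the untreated list (right), for 50 proteasome, 94 cytosolic ribosomal, 78 mitochondrial ribosomal and all 20665 protein-coding genes. The 3 families start close together near 60% with IL-4. The proteasome curve holds 4 members at 5, 2 at 8 and 1 at 15. In the untreated list no proteasome gene passes 2, beside 1 of 94 cytosolic and 0 of 78 mitochondrial ribosomal genes and 1.47% of all genes.

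Psmd1 and Psme2 carried the tallest peaks of the family. Psmd1, the largest subunit of the base and a scaffold that holds the ubiquitin receptor Adrm1, had 20 fragments with IL-4 (12.2 to 30.9) and 6 without (2.20 to 13.1), at −log10 q 15.9 and 1.11. The IL-4 peak lay on chromosome 1 from 86064326 to 86064809, with its summit 113 bp upstream of the annotated start, and the untreated summit was 21 bp away. The 2 intervals overlap slightly.

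Psme2, the β subunit of PA28, had 22 fragments with IL-4 (13.8 to 33.3) and 5 without (1.62 to 11.7), at −log10 q 14.1 and 0.737. Its IL-4 peak ran from 55591098 to 55591686 on chromosome 14, with the summit 160 bp upstream of the start. The interval of its IL-4 fragments starts above the end of the untreated one, but neither covers variation between cultures, and the fragments are not scaled for library depth. The untreated summit lay 179 bp away, 19 bp inside the gene. A second IL-4 peak of 6 fragments (−log10 q 0.784) spanned 55590555 to 55590889 and overlapped no untreated peak. The IL-4 peak also lies within 1 kb of the start of Rnf31, a ubiquitin ligase gene of the LUBAC complex that runs the other way, 641 bp from the start of Psme2.

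Psmd12, a scaffold subunit of the lid, and Psmg2, a chaperone of α ring assembly, had strong peaks in the IL-4 list only. Psmd12 had 13 fragments (6.92 to 22.2, −log10 q 6.59) in a peak that spans 107479382 to 107479905 of chromosome 11, with the summit 60 bp inside the gene, and the nearest untreated summit to either end of the gene was 10614 bp away. Psmg2 had 11 fragments (5.49 to 19.7, −log10 q 6.45) with the summit 96 bp outside an annotated end of the gene, and its nearest untreated summit was 1412 bp from an end. Psmg2 shares this peak with the neighbouring gene Cep76.

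The DNA under or beside these summits is shown for 6 members, as the 250 bases before the annotated start (RefSeq, GRCm38.p6), 5′ to 3′ along the gene. Psmd1 and Psme2 are shown for their tall peaks, Psmd12 for a strong peak listed with IL-4 only, Psmb9 and Psma2 for summits in both lists, and Psmd11 as a lid gene with no gene-end peak in either list. Capitals mark matches, on either strand, to the motifs described further on. The windows are chr1:86064369-86064618 (plus strand), chr14:55591102-55591351 (minus), chr11:107479278-107479527 (plus), chr17:34187331-34187580 (minus), chr13:14612992-14613241 (plus) and chr11:80428365-80428614 (plus).
Psmd1: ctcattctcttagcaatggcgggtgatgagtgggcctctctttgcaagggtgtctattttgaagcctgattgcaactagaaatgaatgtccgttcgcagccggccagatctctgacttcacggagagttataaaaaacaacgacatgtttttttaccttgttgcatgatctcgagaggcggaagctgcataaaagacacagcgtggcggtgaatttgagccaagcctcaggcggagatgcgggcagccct
Psme2: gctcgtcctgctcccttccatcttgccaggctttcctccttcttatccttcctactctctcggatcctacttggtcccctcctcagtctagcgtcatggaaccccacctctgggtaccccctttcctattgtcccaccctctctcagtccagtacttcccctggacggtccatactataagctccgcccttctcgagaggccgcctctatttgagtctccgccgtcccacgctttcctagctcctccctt
Psmd12: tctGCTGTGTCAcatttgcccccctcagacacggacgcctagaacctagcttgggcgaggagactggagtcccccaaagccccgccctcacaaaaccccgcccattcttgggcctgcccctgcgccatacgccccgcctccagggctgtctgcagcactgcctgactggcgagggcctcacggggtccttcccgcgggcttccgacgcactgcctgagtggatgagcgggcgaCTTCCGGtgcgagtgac
Psmb9: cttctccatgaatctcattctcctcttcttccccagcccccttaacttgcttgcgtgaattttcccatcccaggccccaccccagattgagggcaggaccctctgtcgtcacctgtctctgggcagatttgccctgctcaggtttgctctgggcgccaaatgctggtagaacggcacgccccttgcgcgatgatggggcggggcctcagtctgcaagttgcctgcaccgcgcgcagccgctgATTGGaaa
Psma2: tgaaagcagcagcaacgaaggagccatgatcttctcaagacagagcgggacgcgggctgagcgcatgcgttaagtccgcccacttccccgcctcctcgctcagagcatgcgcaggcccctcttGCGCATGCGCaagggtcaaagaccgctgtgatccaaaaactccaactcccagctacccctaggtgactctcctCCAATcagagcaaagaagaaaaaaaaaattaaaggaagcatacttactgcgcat
Psmd11: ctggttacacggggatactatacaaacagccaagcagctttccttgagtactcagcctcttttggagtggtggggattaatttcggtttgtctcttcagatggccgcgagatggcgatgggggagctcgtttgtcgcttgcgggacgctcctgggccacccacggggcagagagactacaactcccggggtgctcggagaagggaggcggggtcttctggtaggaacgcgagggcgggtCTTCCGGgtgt
Counting from 1 at the left, the IL-4 summit fell on base 138 of the Psmd1 sequence and the untreated summit on base 159. In Psme2 the IL-4 summit fell on base 91 and the untreated one lay past the window. In Psmb9 the summits were at bases 56 and 26, and in Psma2 at bases 131 and 153, for IL-4 and untreated cells in that order. The Psma2 IL-4 summit therefore lay inside the match to the nuclear respiratory factor 1 motif, the first stretch of capitals.

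Core particle genes had IL-4 peaks at 10 of 14 members (71.4%, 45.4 to 88.3) and untreated peaks at 1 of 14 (7.14%, 1.27 to 31.5), beside 51.5% and 24.0% of all genes, which lie inside these intervals. None of them passed a −log10 q of 5. In the α ring, which gates the entry to the barrel, 6 of 7 genes had an IL-4 peak. Psma4 had the strongest, with 8 fragments (3.45 to 15.8, −log10 q 3.40) spanning 54950373 to 54950878 of chromosome 9, and no untreated peak. It shares this site with Hykk and AY074887. Psma1 and Psma3 each had 6 fragments with IL-4 at a −log10 q of 1.84, Psma7 had 4 and Psma5 had 3, none with an untreated peak. The Psma3 peak stood 635 bp before the outermost annotated end of the gene, and at position -5975 from the start in the promoter table, so it is not a peak at that start. Psma6 had no gene-end peak in either list.

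Psma2 was the core gene with a peak in both lists, with fold enrichments of 3.65 (IL-4) and 3.10 (untreated). It had 5 fragments with IL-4 and 5 without (1.62 to 11.7 each), at −log10 q 1.26 and 0.737, with summits 120 and 98 bp upstream of the start. It stands head to head with Mrpl32, a mitochondrial ribosomal protein gene whose start is 205 bp away and which shares the peak.

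The constitutive β ring had IL-4 peaks at 4 of 7 genes (57.1%, 25 to 84.2) and no untreated ones (0 to 35.4). The shares of all genes, 51.5% and 24.0%, lie inside these intervals. Psmb3, a non-catalytic subunit, had 6 fragments and a −log10 q of 1.84, but this peak lay at the 3′ end, 9691 bp past the start. Psmb2 and Psmb6 had 5 fragments each, and Psmb1 had 4. Psmb6 encodes the caspase-like catalytic subunit. Psmb5 and Psmb7, the other catalytic subunits of the constitutive core, had no gene-end peak in either list, nor did Psmb4. A level under the calling threshold was not measured.

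The regulatory cap had IL-4 peaks at 8 of 17 genes (47.1%, 26.2 to 69.0) and untreated peaks at 3 of 17 (17.6%, 6.19 to 41.0), and the same backgrounds of 51.5% and 24.0% lie inside these intervals too. Its interval overlaps that of the core particle, so the order of the shares is not resolved. Among the base ATPases Psmc3 had 6 fragments at a −log10 q of 1.84, Psmc6 had 5 and Psmc4 had 4, all in the IL-4 list only, and Psmc1, Psmc2 and Psmc5 had none in either list.

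With all peaks counted, the base subunits that are not ATPases were the one role in which more genes had an untreated peak. An IL-4 peak stood at 1 of 3 (33.3%, 6.15 to 79.2) and an untreated peak at all 3 (100%, 43.9 to 100), beside 51.5% and 24.0% of all genes. The 51.5% lies inside the IL-4 interval and the 24.0% below the untreated one. Beside Psmd1, Psmd2, a scaffold that docks ubiquitin-carrying partners, had 6 fragments (2.20 to 13.1) in untreated cells only, spanning 20651900 to 20652049 of chromosome 16. Its summit was 840 bp inside the outermost annotated end and 310 bp downstream of the start in the promoter table. Psmd4, a ubiquitin receptor, had 5 fragments (1.62 to 11.7) in untreated cells only, spanning 95031833 to 95031982 of chromosome 3, 813 bp past its 3′ end. These peaks had −log10 q values of 1.11 and 0.737, so neither passed q 0.05. At that threshold the order turned round. An IL-4 peak stood at 1 of 3 (Psmd1) and an untreated peak at 0 of 3, beside 19.2% and 4.25% of all genes.

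In the lid, which removes ubiquitin chains, 4 of 8 genes had an IL-4 peak and none an untreated peak (backgrounds 51.5% and 24.0%). After Psmd12 came Psmd3 with 6 fragments (−log10 q 1.63), spanning 98682066 to 98682591 of chromosome 11. Psmd14, the deubiquitinase of the lid, had 4 fragments with its summit 125 bp inside the gene, and Psmd7, its partner, had 3. Psmd6, Psmd8, Psmd11 and Psmd13 had none in either list.

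All 5 immunoproteasome and PA28 genes had an IL-4 gene-end peak (100%, 56.6 to 100), and 3 of 5 had an untreated one (60%, 23.1 to 88.2). The background of 51.5% lies below the IL-4 interval and that of 24.0% inside the untreated one. At q of at most 0.05 the counts were 3 of 5 with IL-4 and 1 of 5 without, beside 19.2% and 4.25% of all genes. With 5 genes the intervals are wide and overlap those of the core and the cap. These genes also do not stand alone: Psmb8 and Psmb9 are close neighbours in the MHC region of chromosome 17, and Psme1 and Psme2 are close neighbours on chromosome 14, so they are 3 places in the genome rather than 5.

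Psmb9, an inducible catalytic subunit, had the strongest untreated peak of the family. It had 10 fragments with IL-4 (4.80 to 18.4) and 7 without (2.81 to 14.4), at −log10 q 4.25 and 1.57. The IL-4 peak lay on chromosome 17 from 34187372 to 34187737 and the untreated peak from 34187468 to 34187644, with summits 30 bp apart. The site lies between the starts of Psmb9 and Tap1, the gene of a peptide transporter subunit, which are 226 bp apart and run in opposite directions. The intervals of the fragments overlap.

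Psmb8, the inducible counterpart of Psmb5, had several peaks. The strongest, with 9 fragments in IL-4 cells (4.12 to 17.1) and 4 in untreated cells (1.09 to 10.2), lay past the 3′ end at 34201965 to 34202154, between Psmb8 and Tap2. Upstream of the start an IL-4 peak of 7 fragments stood from 34197476 to 34197807 with no untreated peak on it, also close to the 3′ end of Tap1. At the start itself the IL-4 list had 6 fragments and the untreated list 4, with summits 69 bp apart. Psmb10, the inducible counterpart of Psmb7, had a weak IL-4 peak of 4 fragments (1.09 to 10.2) 327 bp inside the gene on chromosome 8 and no untreated peak. Psme1, the α subunit of PA28, had 6 fragments (2.20 to 13.1) with IL-4, 172 bp inside the gene, and no untreated gene-end peak.

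**Figure D2:**
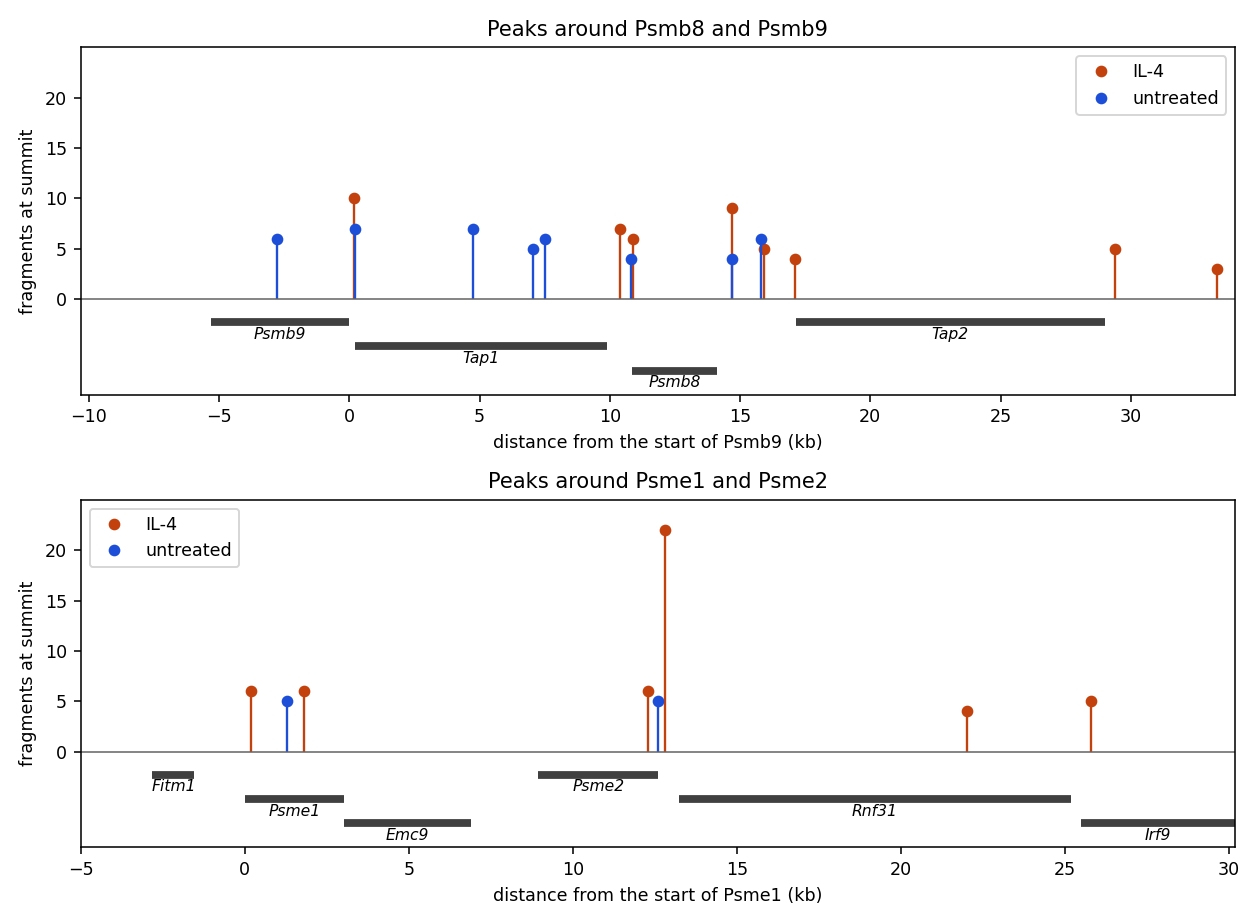
Fragments at each peak summit around Psmb9, Tap1, Psmb8 and Tap2 (top) and around Psme1 and Psme2 (bottom), against distance in kb from the start of Psmb9 or Psme1, with genes as bars below. Around Psmb8 and Psmb9 both lists have 8 peaks, up to 10 fragments with IL-4 and 7 without, whereas at Psme2 IL-4 peaks of 22 and 6 fragments stand beside an untreated peak of 5.

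Across the stretch that reaches 5 kb beyond Psmb9 and Tap2, the IL-4 list held 8 peaks of 3 to 10 fragments and the untreated list 8 of 4 to 7. Of these, 3 and 2 passed q 0.05. Untreated peaks of 5 to 7 fragments lay inside Tap1, where the IL-4 list had none. Around Psme1 and Psme2 the IL-4 list held 6 peaks and the untreated list 2.

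Assembly genes had IL-4 peaks at 4 of 6 members and no untreated ones (backgrounds 51.5% and 24.0%). Beside Psmg2, Psmd9, a chaperone of the base, had 6 fragments (−log10 q 1.84) spanning 123228017 to 123228656 of chromosome 5, the widest peak of a member at 640 bp. Psmg1, the partner of Psmg2, had 4 fragments 23 bp upstream of its start, and Psmg4 had 4. Psmg3 and Psmd5 had none. The inhibitor Psmf1 had 3 fragments at its 3′ end, shared with Tmem74b. Psme3 and Psme4, activators found mainly in the nucleus, and the testis and thymus forms Psma8 and Psmb11 had no gene-end peak in either list. Of the genes matched by symbol only, Psme3ip1 had 6 fragments at a −log10 q of 1.84 and Psmc3ip had 5, both with IL-4 only. Without the 3 such genes, 28 of 47 members had an IL-4 gene-end peak and 7 of 47 an untreated one, a choice made after the values were seen.

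**Figure D3:**
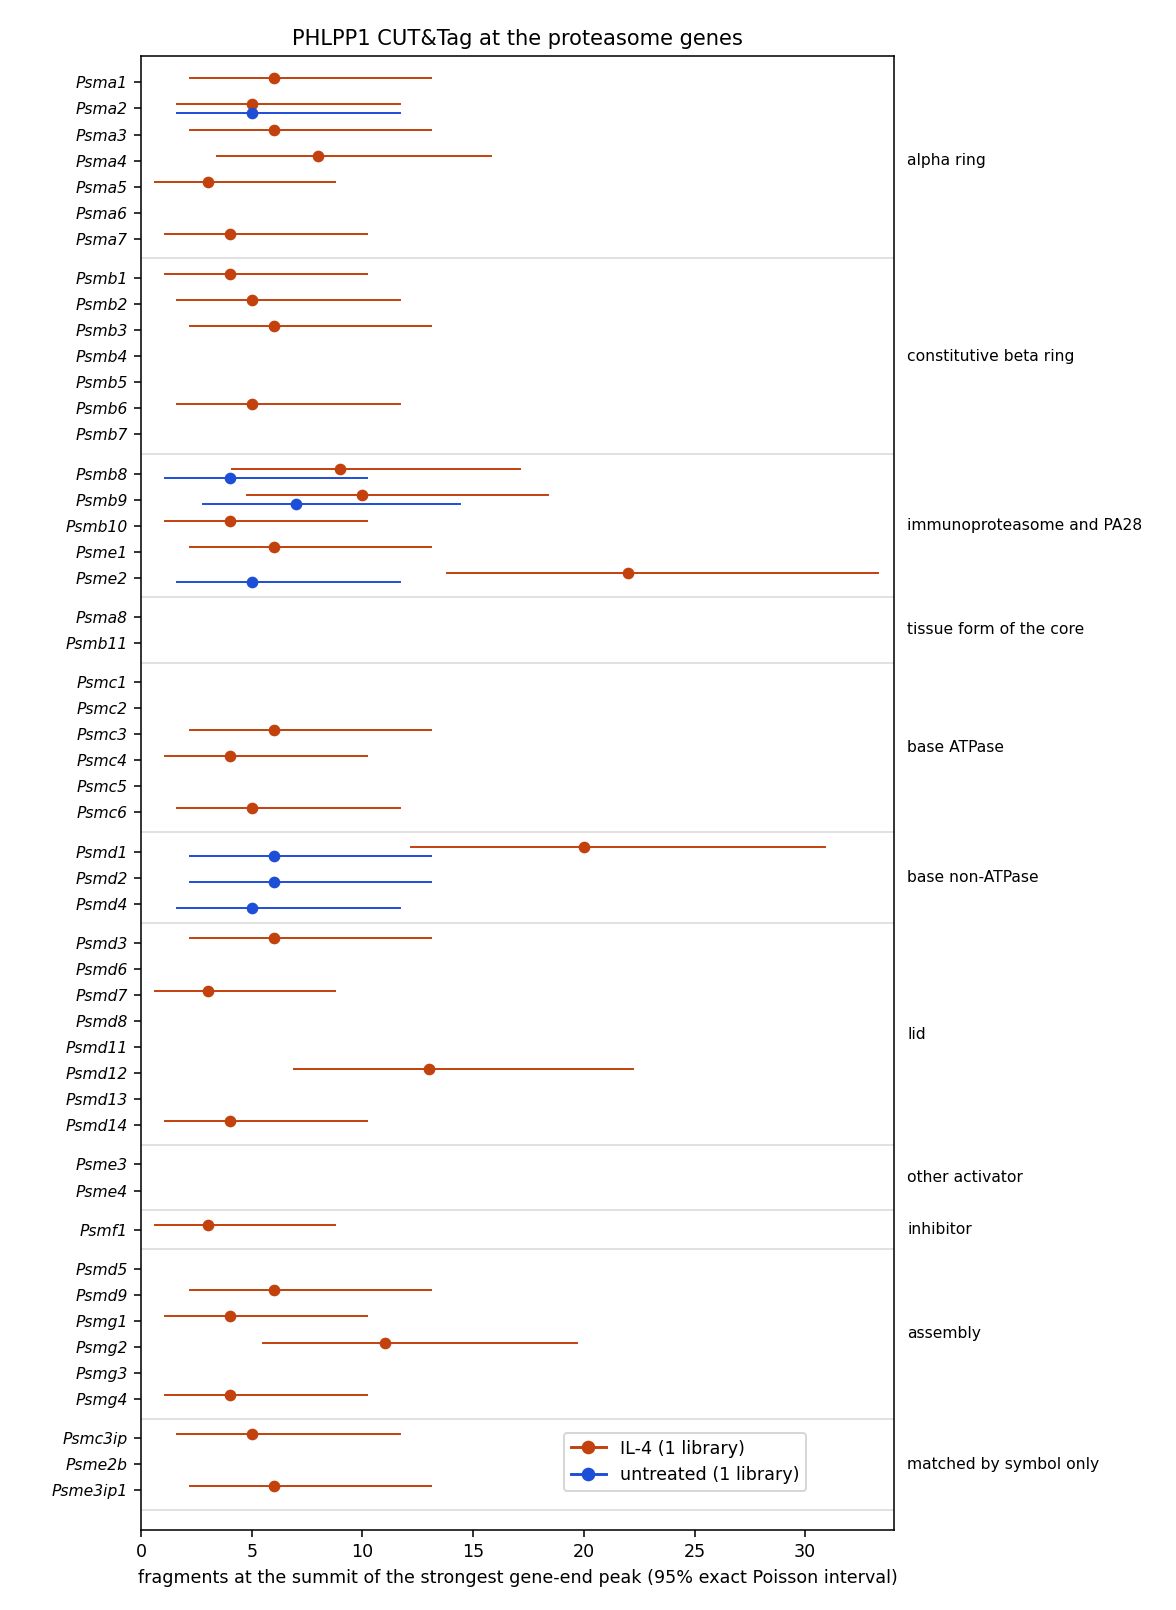
Fragments at the summit of the strongest gene-end peak of each of the 50 members by role, IL-4 in orange above untreated in blue, with 95% exact Poisson intervals. A row without a point has no listed peak. Most points lie at 3 to 6 fragments, and Psme2 (22), Psmd1 (20), Psmd12 (13) and Psmg2 (11), all IL-4, stand to the right.

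Most members' peaks rested on few fragments. Of the 30 members with an IL-4 gene-end peak, 3 had 3 fragments at the strongest, 7 had 4, 5 had 5, 8 had 6 and the other 7 had 8 to 22. Their median was 5.5 fragments, beside 5 for all genes with an IL-4 gene-end peak. The 7 untreated members had 4 to 7 fragments with a median of 5, as did all genes with an untreated gene-end peak. The members' strongest peaks had a median width of 350 bp with IL-4 (30 peaks) and 164 bp without (7 peaks). Over all listed peaks, at gene ends or not and of any strength, the medians were 164 and 171 bp. These are unlike sets: the width of the strongest gene-end peaks of all genes was not computed. Whether the members' peaks differ in width from those of other genes was therefore not tested.

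**Figure D4:**
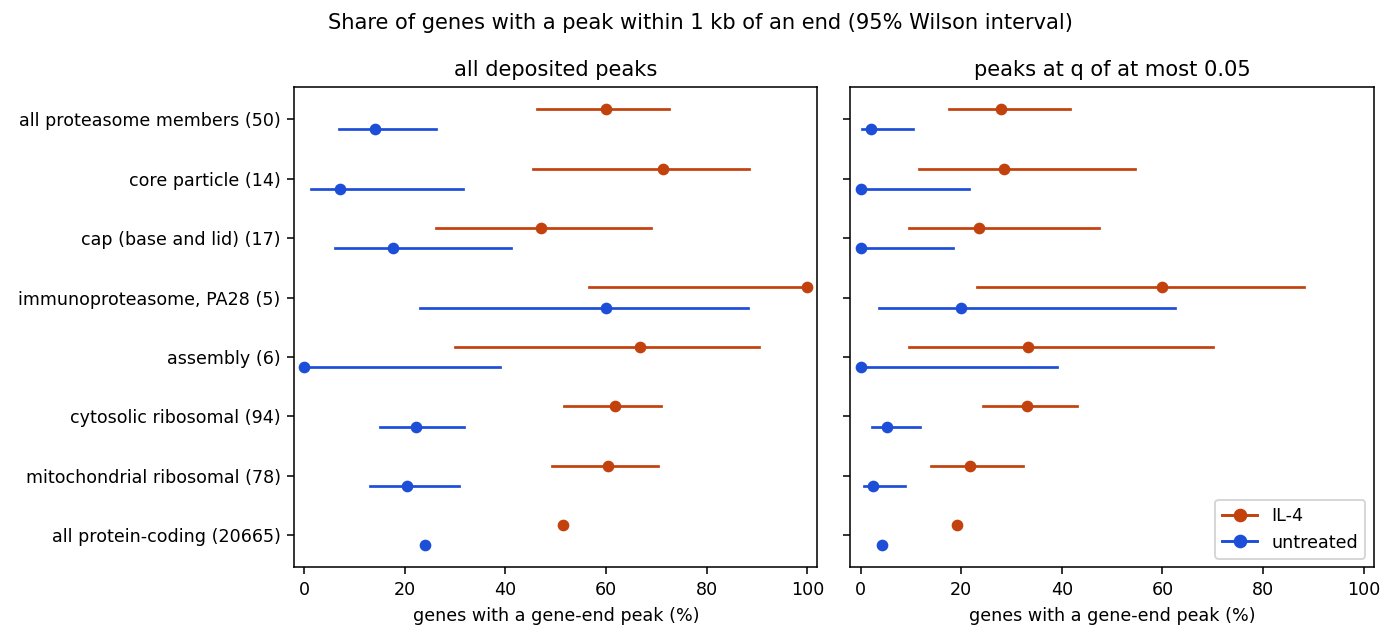
Share of genes (%) with a gene-end peak for the proteasome roles, the ribosomal protein families and all protein-coding genes (number of genes in brackets), with all deposited peaks (left) and peaks at q of at most 0.05 (right). Points are shares and lines are 95% Wilson intervals. IL-4 (orange) is drawn above untreated (blue). With all peaks in untreated cells, the intervals of the core particle (1.27 to 31.5), the cap (6.19 to 41.0) and the immunoproteasome genes (23.1 to 88.2) overlap.

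The strongest IL-4 peaks of the members lay close to gene starts. The promoter table gave a start and strand for 42 members, 24 of them with an IL-4 gene-end peak. Of those 24 strongest peaks, 20 were at an annotated start, 3 at the 3′ end (Psmb3, Psmb8 and Psmf1) and 1 at another annotated end (Psma3). Over all genes with a known start, 69.0% of the strongest IL-4 peaks were at the start. Of the 20, 12 were upstream and 8 downstream of the start, 17 were within 300 bp of it, and the median position was 82.5 bp upstream. The same 300 bp held 62.6% of the start peaks of all genes. In the untreated list 5 of 7 were at a start, 4 of them within 300 bp, beside 51.1% at the start for all genes.

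**Figure D5:**
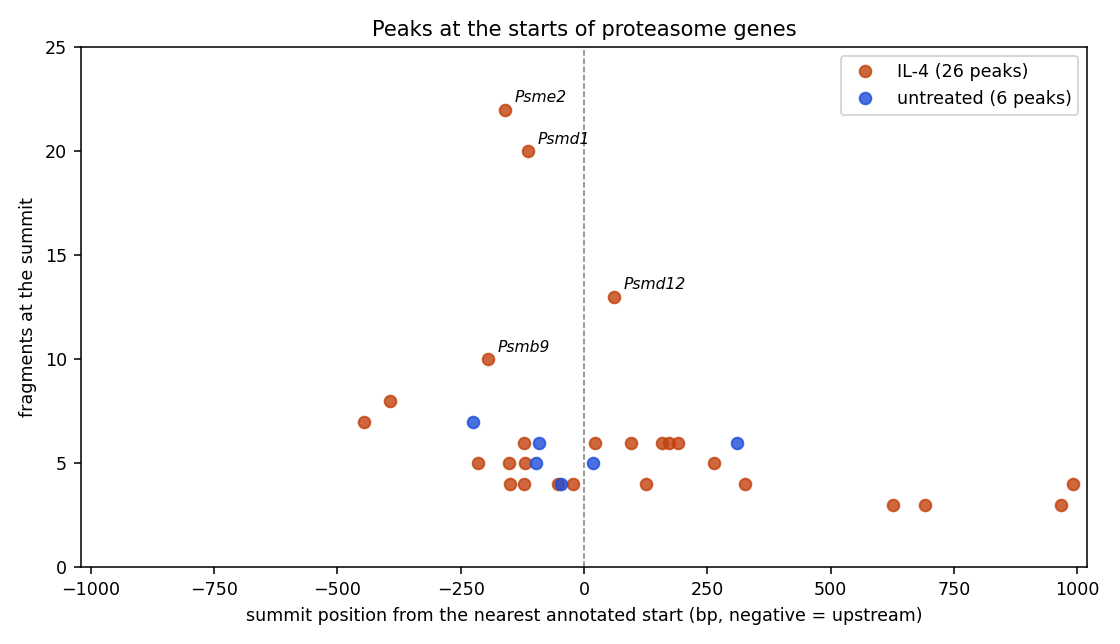
Summit position of every gene-end peak at an annotated start of a proteasome gene (bp, negative is upstream) against the fragments at its summit, for 26 IL-4 and 6 untreated peaks. The tallest drawn, at Psme2, Psmd1, Psmd12 and Psmb9, lie between 195 bp upstream and 60 bp downstream. Only the 42 members with a known start could be drawn, so Psmg2, with 11 fragments with IL-4, is left out.

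Most of the members' untreated sites were also in the IL-4 list, but most IL-4 sites were not in the untreated list. The members had 41 IL-4 and 8 untreated gene-end peaks, and 6 of the 41 overlapped an untreated peak by at least 1 bp (14.6%), as 6 of the 8 did an IL-4 peak. Over all genes, 1109 of 12758 IL-4 gene-end peaks overlapped an untreated one (8.69%), and the share of untreated peaks that overlapped an IL-4 one was not computed. Counted by gene, whether or not the peaks overlap, all genes had the same asymmetry. A gene-end peak in both lists stood at 3011 genes, of 4951 with an untreated and 10633 with an IL-4 one. Among the members it was 5, of 7 and 30. The 6 sites were at Psmd1, Psma2, Psme2, Psmb9 and, at both ends of the gene, Psmb8. Summits at these sites were 21 to 179 bp apart. The IL-4 peak had more fragments at 5 of the 6 and the same number at Psma2, but fragments are not scaled for library depth. By fold enrichment over the local background the IL-4 peak was higher at all 6, with 3.65 and 3.10 at Psma2.

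Several members share their promoter region with another gene. For 9 of 30 members the strongest IL-4 peak also lay at an end of another protein-coding gene, beside 21.6% of all genes with such a peak. Of the 42 members with a known start, 7 have a protein-coding gene that starts within 1 kb in the other direction. An IL-4 gene-end peak stood at 5 of these 7: Psma2, Psma7, Psmb9, Psme2 and Psme3ip1. Psmc5, whose start is 101 bp from that of Ftsj3, and Psmd13, 85 bp from Sirt3, had none. Of the 35 others 19 had one. The matching shares over all genes, with and without such a neighbour, were not computed. These counts therefore have no baseline, and no difference is drawn from them. A peak between such starts cannot be given to either gene.

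Inside the genes and away from their ends, signal was no denser in the members than elsewhere. There were 74 IL-4 peaks and 36 untreated peaks more than 1 kb inside the 49 members longer than 2 kb, or 8.58 and 4.17 per 100 kb. Over all genes the densities were 10.5 and 6.55 per 100 kb. The members were shorter, with a median length of 11930 bp beside 17491 bp for all genes.

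The promoters of the members were searched for 7 motifs on both strands in the 250 bases before the start. The searches covered 42 members and 16457 protein-coding genes with a promoter in the table, and no match of 1 motif overlapped that of another in a member. CCGGAAG, a core ETS family sequence, was in 13 of 42 members (31.0%) and in 10.5% of all promoters. Within the members it was in 4 of 24 with an IL-4 gene-end peak (Psmc3ip, Psmc6, Psmd12 and Psmg1) and in 9 of 18 without one, among them Psmc1, Psmc2, Psmd11 and Psme4. The same split over all genes was not computed, so no link between this motif and the peaks is drawn from these small counts. TGACNNNGC, the sequence through which NFE2L1 is known to control proteasome genes, was in 5 of 42 (11.9%) and in 12.2% of all. Those 5 were Psmb5, Psmb6, Psmc6, Psmd9 and Psmd12, of which Psmb5 lacked a gene-end peak.

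Other motifs were near their shares over all promoters or rare. CCAAT was in 35.7% of members and 39.4% of all promoters, and CACGTG in 11.9% and 7.72%. The STAT6-type motif, TTC and GAA with 4 bases between them, was found in Psmb10 alone among the members (2.38%, with 6.34% of all). The interferon response element (GAAA repeated after 2 bases) was in Psmb3, Psmd4 and Psmd9 (7.14% and 3.50%), and the nuclear respiratory factor 1 motif in Psma2 (2.38% and 1.22%). The tall Psmd1 and Psme2 sites held none of the 7 in these windows. The median number of CpG pairs was 14.5 in members with an IL-4 gene-end peak and 14 in those without, and 10 over all promoters.

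Genes that work with the proteasome are described for comparison. Of 22 cofactor genes 21 were used, and 17 of them had an IL-4 gene-end peak and 6 an untreated one, beside 51.5% and 24.0% of all genes. At q of at most 0.05 the counts were 7 and 0, beside 19.2% and 4.25% of all genes. Ube3a, a ubiquitin ligase gene, had 15 fragments with IL-4 and 6 without, at −log10 q 8.69 and 1.11. Zfand5, encoding a zinc-finger protein that activates the proteasome, had 12 with IL-4 at a −log10 q of 4.81 and no untreated peak. Nfe2l2, the NRF2 gene, had 11 and 6 fragments. Nfe2l1, the regulator of proteasome genes, had 8 with IL-4 only. Sem1, a small lid subunit outside the symbol rule, and Usp14, a deubiquitinase of the cap, had 7 fragments each with IL-4 only, and Ubqln4, a shuttle gene, had 7 and 5. Adrm1, a ubiquitin receptor of the base, had 4 fragments in the untreated list only.

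Partners of the immunoproteasome in antigen presentation gave 8 of 10 genes with an IL-4 gene-end peak and 4 of 10 with an untreated one, beside 51.5% and 24.0% of all genes. At q of at most 0.05 the counts were 3 and 1, beside 19.2% and 4.25%. Beside Tap1, which shares the Psmb9 site, B2m, the light chain of MHC class I, had 8 fragments with IL-4 and 4 without, at −log10 q 3.11 and 0.408. Nlrc5, an activator of MHC class I genes, had 6 with IL-4 only at a −log10 q of 1.34. Tap2 had 5 with IL-4 only, Erap1 had 4 with IL-4 and 6 without, and H2-D1 had 5 in the untreated list only.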

How the data were processed

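PHLPP1 CUT&Tag libraries of bone marrow-derived macrophages, 1 given IL-4 and 1 untreated, were compared through the deposited narrowPeak lists, 1 per library. Build mm10 and the tools MACS2 2.2.7.1, Bowtie 0.12.8 and DiffBind are listed, without their roles, per the submitters' processing notes. Duplicate handling, fragment size and control: not given in the sources used here. In 100% of entries the score the authors deposited was 10 times −log10 p, cut to a whole number. Fold enrichment, as deposited, compares the summit with its local background on a linear scale as a ratio. Each peak also carries −log10 p and −log10 q, as deposited. Other deposited columns give positions, including the summit offset.

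Fragments were solved from the fold, as (fragments + 1)/(background + 1), and the Poisson upper tail; a whole number within 0.01 of the deposited −log10 p was found for 100% of entries. Several summits of 1 interval, 654 with IL-4 and 203 untreated, were reduced to the highest −log10 q. Gene ends and promoters came from RefSeq GRCm38.p6, the build of mm10. Depth is described by the lowest background, since read totals are not in these lists. PCR fragments are not independent molecules, so intervals cover counting error only. Members with q of at most 0.05 in either list, those with peaks in both lists and the immunoproteasome genes were named with values. Members and lists were chosen with earlier results of these data known. The scripts were tested on simulated data. Python 3.11.15, pandas 2.3.3, scipy 1.17.1 and matplotlib 3.10.9 were used. The result of 1 further motif search is not reported here. Window, threshold, overlap, list length and gene end were varied.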

Additional observations from a re-analysis of the deposited data

How the results depend on the processing

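No paired analysis was possible because the labels give 1 library per group and no test was made. The 13 counts were recomputed under 9 alternatives, or 2 for shared sites, and 77 of 110 values stayed within 1.5 times. Taking each gene's peak with the highest fold enrichment left the 37 fragment numbers as they were, the one alternative run for them. With peaks at q of at most 0.05, 14 members had a gene-end peak with IL-4 (core 4, cap 4, immunoproteasome 3) and 1 untreated (core 0, cap 0, immunoproteasome 1), with 1 in both lists, 13 with IL-4 only, 0 untreated only and 36 in neither. Past a −log10 q of 5 there were 4 with IL-4 (core 0, cap 2, immunoproteasome 1) and 0 untreated (0 in each of these roles), with 0 in both, 4 with IL-4 only, 0 untreated only and 46 in neither. A window of 3 kb gave 40 members with IL-4 (80%, all genes 76.6%) and 21 untreated (42.0%, all genes 48.6%). Of the untreated, 3 were core and 8 cap genes, and 18 members were in both lists and 7 in neither. A window of 500 bp gave 27 of 50 members with IL-4 (54%, all genes 38.2%) and 5 of 50 untreated (all genes 14.1%). With IL-4 the members thus lay further above all genes than at 1 kb, but no interval was computed for 500 bp. The statement that the share of all genes lies inside the members' interval was made for all peaks at 1 kb. It does not carry over to 500 bp. That window left 1 untreated cap gene and 0 untreated only. Using annotated starts alone, which keeps the 42 members and 14 cap genes with a known strand, 5 cap genes had an IL-4 peak and 1 member was untreated only. The shift with q follows from keeping fewer peaks, and the shift with window from counting a wider or narrower zone. Of the 6 shared sites, 5 overlapped by 50% of the shorter peak. Most peaks hold 3 to 6 fragments, so a missing peak is not a measured absence.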
